A study of Mus musculus with 8 samples.

Results

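The cadherins described here are 10 genes of the cadherin family, Cdh1, Cdh2, Cdh3, Cdh4, Cdh5, Cdh6, Cdh10, Cdh11, Cdh13 and Cdh15, chosen by symbol from the 22274 genes of the deposited table. RNA was sequenced from primary mouse cardiac fibroblasts, the matrix-producing cells of the heart, in 8 libraries. In 4 libraries, labelled GFP, the cells had been transduced with an empty adenoviral vector (Ad-EV), and in the 4 labelled OEIRF7 with an adenovirus for IRF7 (Ad-IRF7), a transcription factor of the interferon response. The vector type is that of the paper, while the text of the series names an adeno-associated virus. By the reagent list both viruses carry EGFP under the CMV promoter, which is active in most cell types, and the IRF7 virus is named for the human gene. By the paper, not the labels, all 8 cultures received TGF-β, which drives fibroblasts towards myofibroblasts, at 5 ng/ml for 24 h. No untreated level was measured. The methods put the study's genetically modified mouse lines on a C57BL/6 J background. The genotype and age of the mice behind these cultures, and whether the 4 libraries of a group came from separate animals, are not given in the sources used here, so the p-values below measure the spread between these libraries, which may be technical.

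Cadherins are transmembrane proteins that join neighbouring cells through calcium-dependent contacts between their extracellular repeats. The tail of a classical cadherin binds β-catenin or plakoglobin and p120-catenin, and α-catenin links this complex to actin, which makes the adherens junction. Type I classical cadherins include E-, N-, P-, R- and M-cadherin (Cdh1, Cdh2, Cdh3, Cdh4 and Cdh15), and type II include VE-cadherin, cadherin-6, cadherin-10 and cadherin-11 (Cdh5, Cdh6, Cdh10 and Cdh11). T-cadherin (Cdh13) lacks the tail and is held in the membrane by a lipid anchor. Fibroblasts and myofibroblasts are known for N-cadherin and cadherin-11, epithelia for E-cadherin and endothelium for VE-cadherin.

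The libraries held 24454801 to 28658826 counted reads, and no replicates looked like one library deposited again (chi-square per gene of 2.95 or more in every pair). Mouse Irf7, on chromosome 7 from 141262706 to 141266481 of GRCm38, had 2861, 3680, 2272 and 3291 counts with Ad-EV (GFP) and 385, 421, 380 and 404 with Ad-IRF7, a fall of the mouse transcript by 2.96 on the log2 scale. Levels below are in CPM, counts scaled by library total and TMM factor. This fall does not check the labels, since reads of a human transgene need not count towards the mouse gene, and directions are given between the libraries as labelled. Of 10 fibroblast markers all 10 were detected, with summed levels of 24600 to 26000 CPM in the Ad-EV (GFP) libraries and 21900 to 23600 CPM in the Ad-IRF7 libraries. Of these markers 6 were lower and 1 higher with Ad-IRF7, beside 29.9% lower and 29.0% higher of all tested genes. Markers of other cell types were also present. Of 7 macrophage markers 5 were higher and 0 lower, with summed levels of 269 to 320 CPM with Ad-EV (GFP) and 344 to 383 CPM with Ad-IRF7, and Itgam and Mrc1 rose by 1.07 and 1.05 on the log2 scale. Of 7 mural cell markers 6 were tested, 3 were higher and 2 lower, with summed levels of 122 to 135 CPM with Ad-EV (GFP) and 107 to 130 CPM with Ad-IRF7. Of 9 cardiomyocyte markers only Tnnt2 was tested, and it fell by 0.54 on the log2 scale. The summed cardiomyocyte level was 9.84 to 13.7 CPM with Ad-EV (GFP) and 7.54 to 9.85 CPM with Ad-IRF7. The part of these cell types in the values below was not tested. Endothelial, epicardial, epithelial, skeletal muscle and Schwann cell markers are given beside single cadherins.

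Cdh6 and Cdh10 lie on chromosome 15 and both were higher with Ad-IRF7. Their 250 bases upstream of the start site are shown because the factor compared is an IRF, and the capitals mark matches on either strand to the IRF recognition sequence AANNGAAA. The Cdh6 capitals also cover the overlapping NFAT core GGAAA. Both are from RefSeq on GRCm38.p6, Cdh6 on the minus strand at chr15:13173676-13173925 and Cdh10 on the plus strand at chr15:18820079-18820328, each read 5′ to 3′ along its gene. The RefSeq start of Cdh10 used here lies inside the longer GENCODE gene, where the stretch is intronic.
Cdh6: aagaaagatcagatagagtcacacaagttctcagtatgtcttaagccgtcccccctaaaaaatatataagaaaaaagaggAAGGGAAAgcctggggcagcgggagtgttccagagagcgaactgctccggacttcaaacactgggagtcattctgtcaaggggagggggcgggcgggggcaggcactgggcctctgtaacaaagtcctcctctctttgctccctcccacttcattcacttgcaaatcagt
Cdh10: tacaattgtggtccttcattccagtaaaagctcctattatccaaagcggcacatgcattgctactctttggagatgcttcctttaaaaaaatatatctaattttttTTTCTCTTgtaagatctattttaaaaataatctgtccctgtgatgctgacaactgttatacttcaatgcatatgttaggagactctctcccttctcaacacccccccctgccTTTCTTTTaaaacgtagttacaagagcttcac

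The Cdh6 stretch held 1 match, from -170 to -163 relative to the start, and the GGAAA within it spans -167 to -163. The Cdh10 stretch held 2 matches on the opposite strand, from -144 to -137 and from -32 to -25. AANNGAAA was present in 23.9% of 32851 promoter windows of 300 bases, and GGAAA in 61.3%, on either strand. Binding of IRF7 at these matches, and their part in the rise of Cdh6 and Cdh10, was not tested. Neither the AP-1 site TGANTCA (7.81% of windows) nor the E-box CACCTG of SNAI and ZEB repressors (20.2% of windows) was in the Cdh6 or Cdh10 window. Their GC content was 51.2% and 36.8%, against a median of 52.4% over all windows. Windows were matched for 3 of the 10 genes, the third being Cdh15, whose window held none of these motifs. The Cdh15 window, from 122848124 on chromosome 8, also lies inside the GENCODE gene, which starts at 122847966.

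The comparison asks how cadherin transcripts differ between TGF-β-treated fibroblasts with and without the IRF7 virus. Cdh6, Cdh1, Cdh10 and Cdh11 rose with Ad-IRF7, Cdh3 and Cdh5 fell, and Cdh2 and Cdh13 did not pass the test. The changes ranged from a fall of Cdh3 by 2.46 to a rise of Cdh6 by 2.29 on the log2 scale. Calls were made at an adjusted p under 0.05 in edgeR's quasi-likelihood test, fitted to the 13533 genes that passed a filter on low counts, of which 29.0% were called higher and 29.9% lower. Of the 10 cadherins 8 passed the filter, 4 were called higher and 2 lower. Cdh1 passed the filter only through the Ad-IRF7 libraries and Cdh3 only through the Ad-EV (GFP) libraries, in which each was the higher. With a change of over 2-fold as well, Cdh6 and Cdh1 were called higher and Cdh3 lower, against 4.66% and 3.89% of all tested genes. The groups did not overlap in 4 cadherins that were higher and 2 that were lower, against 26.8% and 27.0% of all tested genes. The median log2 fold change of the 8 tested cadherins was 0.10, beside 0.00 over all tested genes. 

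**Figure D1:**
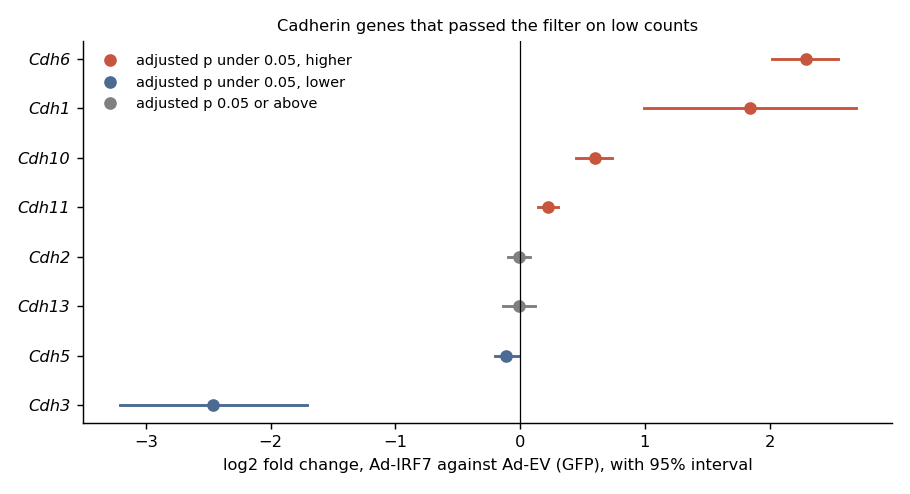
Log2 fold changes (x axis, Ad-IRF7 against Ad-EV (GFP), with 95% intervals) of the 8 tested cadherins, coloured by call. Cdh6 at 2.29 and Cdh1 at 1.84 lie farthest to the right and Cdh3 at -2.46 farthest to the left, while Cdh2 and Cdh13 sit at -0.01.

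Levels of different genes were compared in FPKM, fragments scaled by transcript length and library size, as the authors computed them. The family was led by Cdh2 in every library, followed by Cdh11 and Cdh5. With Ad-EV (GFP) the mean levels were 103 ± 4.96 FPKM for Cdh2, 65.8 ± 2.01 for Cdh11 and 24.9 ± 0.201 for Cdh5 (SD, n = 4). Cdh13 and Cdh10 followed at 4.85 ± 0.285 and 3.13 ± 0.162 FPKM, and the other members were below 1 FPKM. Between neighbours in this order only Cdh6 and Cdh3, Cdh1 and Cdh4, and Cdh4 and Cdh15 overlapped in the Ad-EV (GFP) libraries. With Ad-IRF7, Cdh10 reached 4.83 ± 0.239 FPKM and overlapped with Cdh13 at 4.90 ± 0.166, and Cdh3 fell from above Cdh1 to a level that overlapped with it. The summed FPKM of the 10 genes was 203 on average with Ad-EV (GFP) and 219 with Ad-IRF7.

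**Figure D2:**
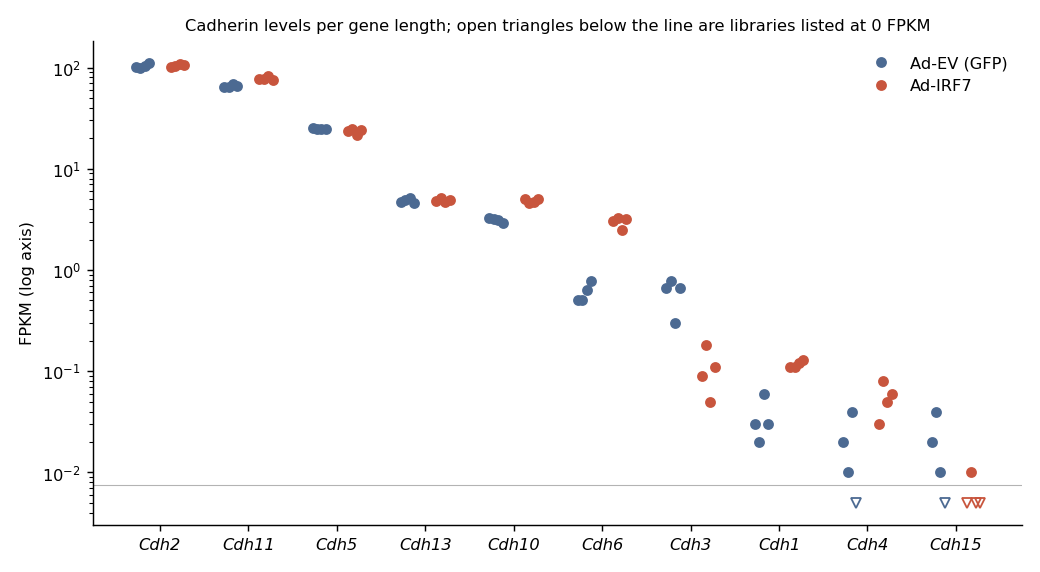
FPKM of each cadherin (log y axis) in the 4 libraries of each group, ordered by the mean with Ad-EV (GFP), with open triangles for libraries listed at 0. The levels span from about 104 FPKM for Cdh2 to at most 0.04 FPKM for Cdh15, and Cdh6 and Cdh3 start at the same level and part with Ad-IRF7.

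Among the type I cadherins, Cdh2 encodes N-cadherin, the main classical cadherin of mesenchymal cells and of the cardiac intercalated disc, and its gene lies on chromosome 18. Its levels were 419, 411, 436 and 461 CPM in the Ad-EV (GFP) libraries, in the order of replicates 1 to 4 kept throughout, and 410, 419, 444 and 444 CPM in the Ad-IRF7 libraries. The groups lay on top of each other. The log2 fold change was -0.01 with a 95% interval from -0.10 to 0.08 (adjusted p = 0.87, edgeR). The antisense gene Gm15485 is annotated inside Cdh2, and its reads could not be told apart if strand was not used.

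Cdh3 encodes P-cadherin, a cadherin of basal epithelia and placenta that is also found in some mesenchymal cells. It lies on the plus strand of chromosome 8 from 106510891 to 106557297. Cdh3 had 79, 86, 33 and 78 counts in the Ad-EV (GFP) libraries and 10, 23, 6 and 12 in the Ad-IRF7 libraries. All Ad-IRF7 libraries were below all Ad-EV (GFP) libraries, although Ad-EV (GFP) replicate 3 was well below the rest of its group. The group means were 2.68 ± 0.922 and 0.476 ± 0.235 CPM (SD, n = 4). Cdh3 was lower by 5.50-fold, the largest fall among the cadherins tested (log2 fold change -2.46, standard error 0.348, adjusted p = 2.5e-05, edgeR). With a pseudocount of 1 on FPKM the difference in limma was -0.53 on the log2 scale, on which changes of low genes come out smaller. Epicardial or mesothelial markers moved in both directions: of 8 tested, 3 were lower and 2 higher, beside 29.9% and 29.0% of all tested genes. Upk3b, Lrrn4 and Tbx18 fell by 1.32, 0.70 and 0.29 on the log2 scale, and Krt19 and Msln rose by 1.96 and 0.19. The summed level of the 9 markers was 223 to 238 CPM with Ad-EV (GFP) and 166 to 178 CPM with Ad-IRF7. Their part in the fall of Cdh3 was not tested.

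Cdh1 encodes E-cadherin, the cadherin of epithelia. It is the next gene along from Cdh3 on the same strand of chromosome 8, from 106603351 to 106670246, and starts 46053 bases beyond the end of Cdh3. It had 3, 2, 5 and 3 counts in the Ad-EV (GFP) libraries and 12, 14, 12 and 11 in the Ad-IRF7 libraries, so the groups did not overlap but rested on few reads. Summed over libraries this was 13 against 49 counts, a ratio of 3.69 with an exact binomial interval of 1.97 to 7.41 that covers counting error only. The fit gave 1.84 on the log2 scale with a standard error of 0.396 (adjusted p = 0.0010, edgeR). Neighbouring Cdh1 and Cdh3 were thus called in opposite directions, but each passed the filter only through the group in which it was the higher. With at least 10 counts required in every library neither was tested. With Ad-IRF7 they stood at 0.466 ± 0.0153 and 0.476 ± 0.235 CPM (SD, n = 4). Of 9 epithelial marker genes, 8 did not pass the filter on low counts. Their summed level was 0.877 to 1.49 CPM with Ad-EV (GFP) and 2.96 to 6.16 CPM with Ad-IRF7. Most of the latter was Cldn4, a tight junction claudin, which rose by 2.70 on the log2 scale to 3.45 ± 1.12 CPM (SD, n = 4), while Epcam and the keratins Krt5 and Krt14 were near 0. Krt19, a keratin of simple epithelia and mesothelium counted above with the mesothelial markers, rose by 1.96 on the log2 scale. Its means were 4.75 ± 1.26 and 18.5 ± 4.74 CPM (SD, n = 4). Of the other keratins among those markers, Krt18 was not called and Krt8 did not pass the filter. The part of epithelial or mesothelial cells in the rise of Cdh1 was not tested. In a bulk sample fewer cells of a type and less RNA per cell cannot be told apart.

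Cdh4 and Cdh15 encode R-cadherin, known from retina and brain, and M-cadherin of skeletal muscle precursors, and neither had enough counts for the test. Cdh4 had 3, 2, 6 and 0 counts with Ad-EV (GFP) and 5, 14, 8 and 9 with Ad-IRF7, which overlapped. Its ratio was 3.20 with an interval of 1.59 to 6.97 for counting error only. With 1 library left out it ranged from 2.38, without Ad-EV (GFP) replicate 4, to 5.35, without Ad-EV (GFP) replicate 3. Without a filter on low counts its log2 fold change was 1.61 with an adjusted p of 0.061 (edgeR). Cdh15 had 6 counts over the Ad-EV (GFP) libraries and 1 count, in replicate 2, over the Ad-IRF7 libraries. The ratio of 0.163 had an interval of 0.00354 to 1.34, so no difference was detectable at this depth. Cdh15 lies within the annotated span of Gm20388 on the same strand, so its reads could be split between them. Of 7 skeletal myogenic markers 3 were tested. Chrna1, a subunit of the muscle acetylcholine receptor, rose by 2.63 on the log2 scale to 16.0 ± 1.22 CPM (SD, n = 4), Des rose by 1.08 and Msc fell by 0.97. The summed level of these markers was 6.49 to 7.32 CPM with Ad-EV (GFP) and 17.7 to 20.8 CPM with Ad-IRF7. The muscle regulators Myod1 and Myf5 had no count in any library.

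Among the type II cadherins, Cdh6 encodes cadherin-6, or K-cadherin, a cadherin of the developing kidney and neural crest. Cdh6 lies on the minus strand of chromosome 15 from 13028701 to 13173675. Cdh6 had 113, 104, 131 and 166 counts in the Ad-EV (GFP) libraries and 631, 773, 522 and 642 in the Ad-IRF7 libraries. The lowest Ad-IRF7 library was well above the highest Ad-EV (GFP) library. The group means were 5.01 ± 1.03 and 24.4 ± 2.77 CPM (SD, n = 4), a rise of 4.87-fold (log2 fold change 2.29, standard error 0.121, adjusted p = 8.9e-10, edgeR). This was the largest rise among the cadherins tested. Per length, Cdh6 moved from 0.608 ± 0.124 to 3.01 ± 0.354 FPKM (SD, n = 4 per group), which still placed it below Cdh13 and Cdh10.

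Cdh10, on the plus strand of chromosome 15 from 18818947 to 19014236, encodes a cadherin known mainly from the nervous system. It had 284, 253, 248 and 245 counts in the Ad-EV (GFP) libraries and 403, 417, 379 and 390 in the Ad-IRF7 libraries. The groups were apart and the spread within each was small. The rise was 1.51-fold (log2 fold change 0.60, standard error 0.0696, adjusted p = 3.7e-06, edgeR).

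Cdh11 encodes cadherin-11, or OB-cadherin, which joins mesenchymal cells and is known as a cadherin of activated fibroblasts. It lies on the minus strand of chromosome 8 from 102632095 to 102785642. It had 369, 366, 391 and 374 CPM in the Ad-EV (GFP) libraries and 429, 428, 465 and 423 CPM in the Ad-IRF7 libraries. All Ad-IRF7 libraries were higher, with replicate 3 the highest of its group. The rise was 16.3% (log2 fold change 0.22, standard error 0.0363, adjusted p = 0.00012, edgeR). Set against Cdh2 within each library, the ratio of Cdh11 to Cdh2 in FPKM was 0.595 to 0.658 with Ad-EV (GFP) and 0.706 to 0.769 with Ad-IRF7. The share of Cdh11 in the summed FPKM of the 10 genes was 32.4% and 35.6% on average in these groups, and that of Cdh2 was 50.8% and 47.7%.

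**Figure D3:**
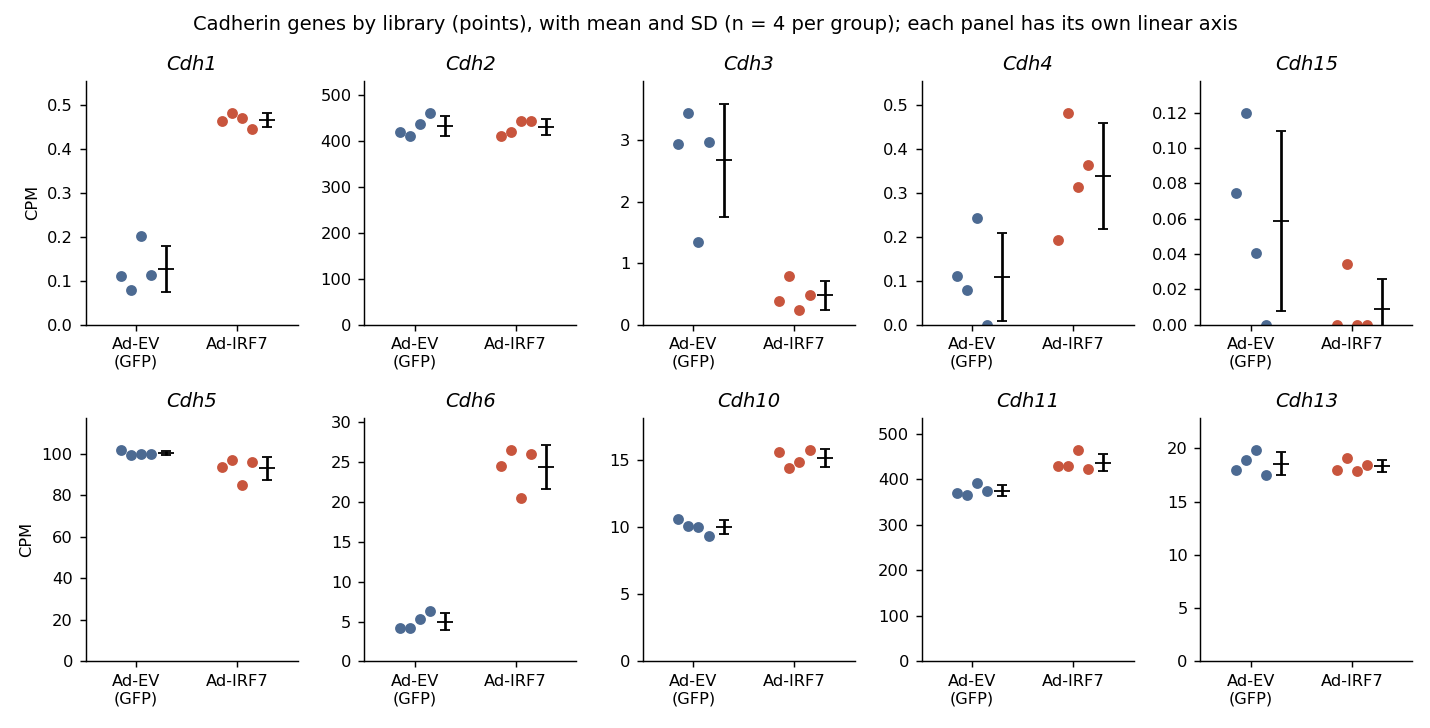
CPM (linear y axis from 0, a separate scale per panel) of the 10 cadherins in each library, with the mean and SD of 4 libraries per group beside the points. The groups are apart for Cdh1, Cdh3, Cdh5, Cdh6, Cdh10 and Cdh11, narrowly so for Cdh5, and overlap for Cdh2, Cdh4, Cdh13 and Cdh15.

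Cdh5 encodes VE-cadherin, which holds endothelial cells together. It lies on the plus strand of chromosome 8 from 104101625 to 104144511. The antisense gene Gm29682 overlaps the start of Cdh5, and reads there could not be told apart if strand was not used in counting. Cdh5 had 102, 99.6, 100 and 100 CPM in the Ad-EV (GFP) libraries and 93.7, 97.0, 85.1 and 95.8 CPM in the Ad-IRF7 libraries. The groups were apart, but by little, and Ad-IRF7 replicate 3 was the lowest. The percent change was -7.45% (log2 fold change -0.11, standard error 0.0416, adjusted p = 0.032, edgeR). The call was lost without Ad-EV (GFP) replicate 1, 3 or 4 or Ad-IRF7 replicate 1 or 3, with an adjusted p of 0.069, 0.056, 0.050, 0.056 and 0.10 in that order (edgeR). It was also lost when libraries were scaled by size alone, with a log2 fold change of -0.08 and an adjusted p of 0.11 (edgeR).

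Cdh5 ranked next after Cdh2 and Cdh11 in these libraries labelled as fibroblasts, and endothelial markers were detected beside it. All 10 endothelial markers passed the filter on low counts, with summed levels of 158 to 167 CPM with Ad-EV (GFP) and 172 to 187 CPM with Ad-IRF7. Of these 4 were higher with Ad-IRF7 and 0 lower, beside 29.0% and 29.9% of all tested genes. Among the 4 were Kdr, the main VEGF receptor, with a log2 fold change of 0.79, and Emcn with 0.29. Pecam1, the adhesion protein CD31, was 45.6 ± 2.46 and 45.2 ± 1.31 CPM (SD, n = 4 per group). Per length, Cdh5 was above Pecam1 in both groups, at 24.9 against 14.4 FPKM with Ad-EV (GFP) and 23.5 against 14.6 FPKM with Ad-IRF7. Ptprb, the phosphatase VE-PTP that binds VE-cadherin, had a log2 fold change of -0.02 (adjusted p = 0.84, edgeR). Pcdh12, an endothelial protocadherin, was 2.24 ± 0.295 and 3.92 ± 0.476 CPM (SD, n = 4), a rise by 0.81 on the log2 scale. The part of endothelial cells in the level of Cdh5 was not tested.

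**Figure D4:**
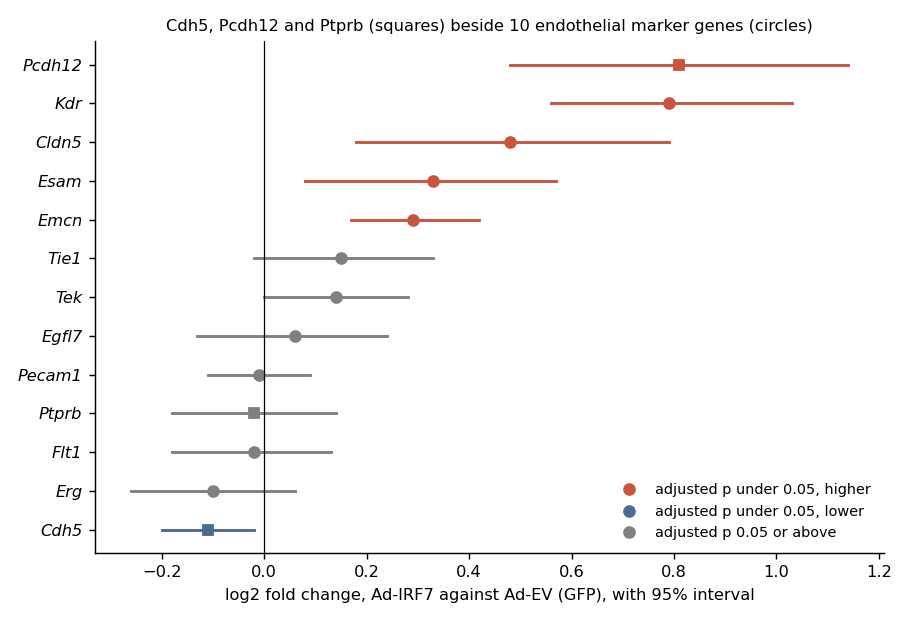
Log2 fold changes (x axis, Ad-IRF7 against Ad-EV (GFP), with 95% intervals) of Cdh5, Pcdh12 and Ptprb as squares and of 10 endothelial markers as circles, coloured by call. Cdh5 has the lowest estimate, -0.11, and 4 of the 10 markers were called higher.

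Cdh13 encodes T-cadherin, a receptor for adiponectin and LDL, and spans chromosome 8 from 118283733 to 119324921. It had 18.0, 18.9, 19.9 and 17.5 CPM in the Ad-EV (GFP) libraries and 18.0, 19.1, 17.9 and 18.4 CPM in the Ad-IRF7 libraries. The groups overlapped throughout. The log2 fold change was -0.01 with a 95% interval from -0.14 to 0.12 (adjusted p = 0.87, edgeR). By position, 6 of the 10 genes lie on chromosome 8, and of these Cdh11 and Cdh1 rose, Cdh3 and Cdh5 fell, Cdh13 was not called and Cdh15 was not tested.

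The cytoplasmic partners of these cadherins were read from a list of 22 catenins, junction linkers and nectins. Of 21 tested, 5 were higher and 11 lower, beside 29.0% higher and 29.9% lower of all tested genes. The median change of the 21 was -0.13 on the log2 scale, beside 0.00 over all tested genes. Ctnnb1, which encodes β-catenin, had 737, 719, 743 and 747 CPM in the Ad-EV (GFP) libraries and 864, 847, 885 and 882 CPM in the Ad-IRF7 libraries, a rise by 0.24 on the log2 scale. Ctnna1, which encodes the α-catenin of most tissues, rose by 0.15, with means of 499 ± 6.41 and 553 ± 14.4 CPM (SD, n = 4). Jup, which encodes plakoglobin, was 251 ± 6.87 and 246 ± 21.1 CPM (SD, n = 4 per group) and was not called (adjusted p = 0.68, edgeR).

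Members of the p120-catenin family, which bind the membrane-near part of classical cadherin tails, were lower. Ctnnd1, which encodes p120-catenin, had 369, 362, 355 and 384 CPM in the Ad-EV (GFP) libraries and 230, 231, 231 and 251 CPM in the Ad-IRF7 libraries. It fell by 0.64 on the log2 scale (adjusted p = 2.6e-09, edgeR), in libraries where β-catenin and α-catenin transcripts were higher. Arvcf fell by 1.28 and Ctnnd2, or δ-catenin, fell by 0.99, and Pkp4 of the same family had -0.11 (adjusted p = 0.034, edgeR). The largest fall of the list was that of Plekha7, which binds p120-catenin at adherens junctions. Plekha7 was 53.9 ± 1.91 CPM with Ad-EV (GFP) and 21.8 ± 0.971 CPM with Ad-IRF7 (SD, n = 4), a change of -1.30 on the log2 scale. Among the proteins that tie α-catenin to actin, Vcl, or vinculin, fell by 0.91, with means of 506 ± 13.5 and 269 ± 6.67 CPM (SD, n = 4). Other linkers on the list were mixed: Lima1 and Tjp1 fell by 0.70 and 0.13, Limd1 rose by 0.16, and Afdn and Ajuba were not called. Ctnnal1 and Ctnna2, relatives of α-catenin, fell by 1.09 and 1.03, the latter at 1.64 CPM or below on average.

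Nectins are immunoglobulin-like adhesion proteins that assemble junctions next to cadherins. Nectin1 had 20.8, 23.4, 20.1 and 23.2 CPM in the Ad-EV (GFP) libraries and 48.5, 47.4, 44.1 and 52.2 CPM in the Ad-IRF7 libraries. The groups were far apart, with a rise by 1.14 on the log2 scale. Nectin3 rose by 0.41 and Nectin2 had 0.12, which was not called. Nectin4, at 0.568 CPM or below on average, had -0.88 and was not called either (adjusted p = 0.075, edgeR).

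**Figure D5:**
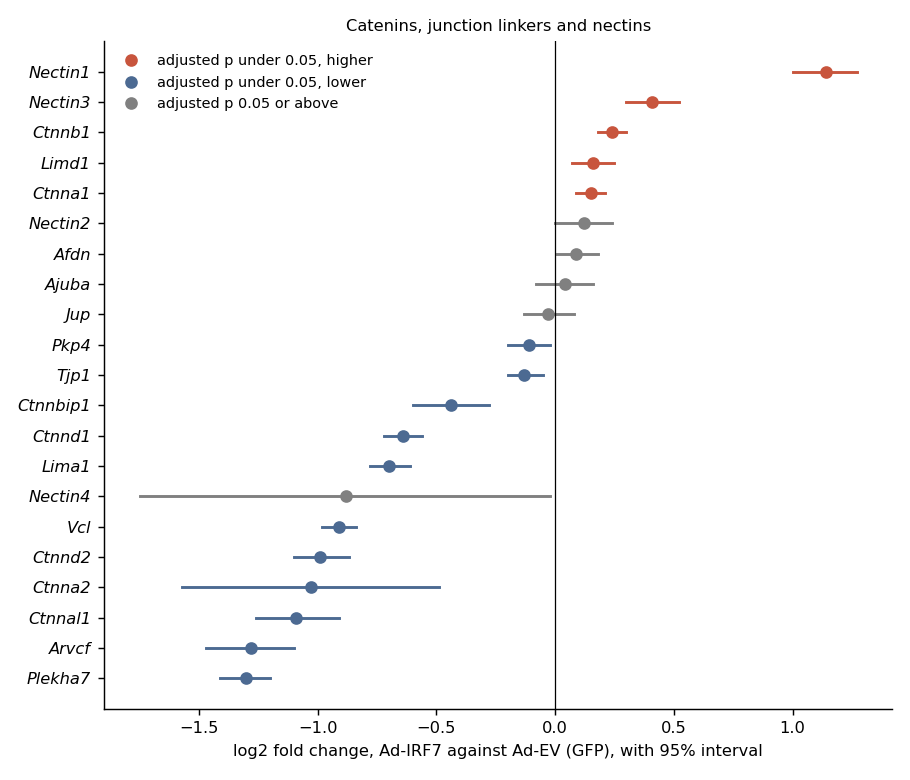
Log2 fold changes (x axis, Ad-IRF7 against Ad-EV (GFP), with 95% intervals) of the 21 tested catenins, junction linkers and nectins, coloured by call. Nectin1 at 1.14 and Plekha7 at -1.30 are the ends of the range, and Ctnnb1 and Ctnna1 lie on the opposite side of 0 from Ctnnd1.

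Of 15 genes for proteases and phosphatases that act on cadherins, 4 were higher and 6 lower, beside 29.0% and 29.9% of all tested genes. The median log2 fold change of the 15 was -0.02. Pcsk6, a proprotein convertase of the family that cuts cadherin precursors, fell by 1.10, with means of 227 ± 10.9 and 106 ± 2.74 CPM (SD, n = 4), while the related Furin had 0.15 (adjusted p = 0.020, edgeR). Adam10, which sheds the extracellular part of N-cadherin and E-cadherin, had -0.06 and was not called (adjusted p = 0.13, edgeR). Of 8 repressors of Cdh1 transcription 3 were higher and 1 lower, beside the same shares of all tested genes. Zeb2 rose by 0.63, the largest rise among the repressors, with means of 168 ± 5.67 and 260 ± 7.40 CPM (SD, n = 4), in the libraries in which Cdh1 was the higher. The related Zeb1 was lower by 0.13 (adjusted p = 0.0043, edgeR). The part of these repressors in the level of Cdh1 was not tested.

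The wider cadherin superfamily was read from 51 further genes, of which 29 were tested. Of these 11 were higher and 9 lower, beside 29.0% and 29.9% of all tested genes, with a median log2 fold change of -0.03. Dsc2, the desmosomal cadherin desmocollin-2, had 4, 4, 3 and 14 counts in the Ad-EV (GFP) libraries and 172, 202, 164 and 160 in the Ad-IRF7 libraries. Dsc2 passed the filter only through the Ad-IRF7 libraries, in which it was the higher. Summed over libraries this was 25 against 698 counts, a ratio of 27.3 with an interval of 18.3 to 42.5 for counting error only (adjusted p = 1.1e-09, edgeR). Ad-EV (GFP) replicate 4 held 14 of the 25 counts, and without it the ratio was 46.2. Its rise was larger than that of any of the 10 cadherins. Pcdh18, a protocadherin, fell by 1.08 with means of 80.4 ± 3.36 and 38.1 ± 4.87 CPM, and Clstn2, or calsyntenin-2, rose by 1.17 with means of 1.26 ± 0.394 and 2.84 ± 0.232 CPM (SD, n = 4). Cdh19, a cadherin of Schwann cell precursors, fell by 0.47. Of 6 Schwann cell markers 5 were tested, 0 were higher and 1, Cnp, was lower by 0.23. Sox10, a transcription factor of that lineage, was not called. The summed level of the 6 markers was 22.0 to 23.2 CPM with Ad-EV (GFP) and 20.1 to 21.6 CPM with Ad-IRF7. Their part in the fall of Cdh19 was not tested.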

How the data were processed

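RNA-seq counts of 8 libraries were analysed, 4 per group by their titles. The authors trimmed reads with Trimmomatic, mapped them to GRCm38 with HISAT2 and deposited raw HTSeq-count counts per gene. They also deposited FPKM from Cufflinks. The methods name a stranded library kit. Tool versions and the strand setting of the counting are not given in the sources used here. The series text and the methods differ on the virus, adeno-associated virus against adenovirus, and on the kits. Group means, a log2 ratio, a p-value and an FDR that the authors deposited are their own comparison and were not used.

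Counts were fitted in edgeR 4.0.16 (R 4.3.3) with filterByExpr, TMM scaling and the quasi-likelihood test without covariates, with Benjamini-Hochberg adjustment over 13533 genes. Standard errors are the fold change over the root of its F. Damaged symbols (121) were restored by identifier from GENCODE M21, which also gave coordinates. On simulated counts for this comparison, edgeR recovered 196 of 200 genes changed 2-fold among 13462, with 5.77% false calls. The simulation gave all genes 1 common spread and changed only those 200. In the data 29.0% of genes were called higher and 29.9% lower, so these rates need not carry over. DESeq2 1.42.0 and limma 3.58.1 served as alternatives.

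The members and lists were chosen with earlier results of these data known. Named genes are all members, Ctnnb1, Ctnnd1, Ctnna1 and Jup, and, from the lists of junction partners, proteases and phosphatases, repressors and other superfamily genes, those called with a change of at least 2-fold and a mean above 1 CPM. Marker lists were to be given by counts and summed levels. Every other gene, such as Vcl, Zeb2, Pcdh12, Ctnnd2 and the single markers that moved, was named after its values were seen.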

Additional observations from a re-analysis of the deposited data

Results flagged for a closer look

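In 20 sets of 4 values, 10 genes in each of 2 groups, 2 libraries stood apart from the other 3 of their group by Dixon's test, where chance gives about 1 in 20. Cdh11 was 465 CPM in Ad-IRF7 replicate 3, against 423 to 429 CPM in the others. Without that library the log2 fold change of Cdh11 was 0.19 and its call held. Cdh15 was 0.0345 CPM in Ad-IRF7 replicate 2, which is 1 count against 0 in the others.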

How the results depend on the processing

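The 4 cadherins called higher remained so in DESeq2, with other scaling, in the replicate block and when any library was left out. With at least 10 counts in every library, and in limma on FPKM with a filter, 3 were called higher, since Cdh1 was not tested. The number called lower, 2, was 1 with scaling by library size alone, 1 with at least 10 counts in every library, where Cdh3 was not tested, and 1 in each of the 3 fits of limma on FPKM. Without 1 library at a time it was 1 to 2. Apart from the filter, each loss was that of Cdh5, whose log2 fold change ranged from -0.13 to -0.07 and whose adjusted p reached 0.20 (limma), and the cause was not tested. On log2(FPKM + 1) Cdh6 rose by 1.32 and Cdh1 by 0.11, since the pseudocount of 1 shrinks low values. Cdh2 and Cdh13 were not called in any of the 17 alternatives, with log2 fold changes within 0.04 of 0. Same-numbered libraries of the groups correlated with r of 0.0792, 0.0953, 0.138 and 0.104 and each correlated best with its own number, a hint from the data only. With the replicate block 4 cadherins were higher and 2 lower, and all genes called went from 3924 higher and 4045 lower to 4057 and 4154. Below about 0.5 CPM, as for Cdh1, Cdh4 and Cdh15, and for Cdh3 with Ad-IRF7, depth limits what can be seen. The junction and superfamily genes named by rule kept their calls, and Jup was not called, in every alternative that tested them, a check chosen after seeing the data, as was leaving libraries out of the ratios of summed counts.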
